A study of Mus musculus with 4 samples.

Results

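Cells recognise foreign or misplaced RNA with a small set of sensor proteins, and 8 of their genes are described here: Ddx58, Ifih1, Dhx58, Mavs, Tlr3, Eif2ak2, Zbp1 and Irf3. They were chosen by name and function, with earlier results of these data already known. All 8 were found by Ensembl identifier among the 55812 features of a deposited table of read counts, and all 8 passed the filter on low counts. The samples were primary mouse Leydig cells, the testosterone-producing cells between the tubules of the testis, labelled 6-month-old mouse. One group (2 samples) received Negative siRNA and the other (2 samples) received Trps1 siRNA, which targets the mRNA of a GATA-type zinc finger repressor. Both groups thus received a short double-stranded RNA, and cells without siRNA were not analysed here. The sources used here give no siRNA sequence, dose or time of harvest, and do not say whether samples of a group came from separate animals or cultures. The p-values therefore rest on the spread between the libraries alone, and that spread may be technical.

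RIG-I (gene Ddx58) and MDA5 (Ifih1) are helicases of the cytosol that bind double-stranded RNA, RIG-I at the ends of short molecules and MDA5 along long ones. Both signal through MAVS on the outer mitochondrial membrane to kinases that activate the transcription factor IRF3, which switches on interferon genes. LGP2 (Dhx58) belongs to the same helicase family but lacks the domains that signal to MAVS. TLR3 reads double-stranded RNA in endosomes, PKR (Eif2ak2) stops translation when it binds such RNA, and ZBP1 binds Z-form nucleic acid and can start necroptosis, an inflammatory cell death. Several of these genes are themselves induced by interferon.

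Libraries held between 17844125 and 25852898 counted reads, and the 8 genes together took between 10518 and 19642 of them. The targeted gene, Trps1, was at 38.0 and 42.2 CPM (the usual depth-scaled read count, here after TMM scaling) in the controls and at 23.5 and 30.1 CPM after its siRNA, or 67.1% of the control level (edgeR adjusted p = 0.000351). The cell label was checked against 10 Leydig genes, all detected in every library. Of these 7 rose, with sums of 4452 and 4754 CPM in the controls and 6487 and 6960 CPM after Trps1 siRNA. Of 18 macrophage markers, none was at 0 and 9 fell, or 16 without sample 1 of Trps1 siRNA. Their sum was 3275 and 3202 CPM in the controls, against 2779 and 2206 CPM after Trps1 siRNA. In bulk RNA, fewer cells of a type and less RNA per cell cannot be told apart. Of 10 germ cell genes 3 were tested, and 2 of these rose. The count was 1 in DESeq2, in voom, in non-robust fits and with GC and length offsets. It was also lower without sample 2 of either group. Germ cell genes summed to 119.5 and 114.2 CPM in the controls and 143.3 and 156.7 CPM after Trps1 siRNA. Sycp3, which is in this list, shares 52.2% of its exon bases with Chpt1 on the opposite strand. Large overlaps also occurred in other lists. Insl3, a Leydig gene, shares 64.8% with Jak3, and the macrophage marker Itgam 68.7% with another gene, both on the same strand. The peritubular gene Tagln shares 62.4% with a gene on the opposite strand. Endothelial and lymphocyte lists summed to at most 52.9 and 3.48 CPM, and Sertoli cell genes to at most 150.3 CPM. Peritubular genes, of which 2 of 4 tested fell, summed to at least 93.98 CPM in the controls and at most 62.7 CPM after Trps1 siRNA. Of that peritubular sum, Myl9 alone made up 58.4 and 61.6 CPM in the controls and 35.1 and 39.4 CPM after Trps1 siRNA.

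Short stretches around the starts of sensor genes are shown because they carry the letters of an interferon-stimulated response element, the DNA sequence bound by interferon-activated factors. The letters searched on both strands were GAAA, any 2 bases, and a further GAAA, in windows from 250 bases before to 50 after each RefSeq start (GRCm38.p6). Capitals mark the match, and each sequence is written along the gene's own strand.
Ddx58: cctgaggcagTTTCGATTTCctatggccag
Eif2ak2: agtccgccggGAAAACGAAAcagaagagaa
Ifih1: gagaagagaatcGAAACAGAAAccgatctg
In this order they lie at chr4:40239804-40239833, chr17:78882535-78882564 and chr2:62646206-62646235, all on the minus strand. The match covered bases 3 to 12 of the transcribed sequence in Ddx58, 19 to 28 in Eif2ak2 and 33 to 42 in Ifih1. Windows were found for 6 of the 8 genes, and 3 of the 6 held a match, as did 3.44% of 32851 windows of all genes. Windows of Mavs, Irf3 and Tlr3 held none, which says nothing of the factors that bind there. The letters of GATA sites (4 hexamers, GATA preceded by A or T and followed by A or G, AGATAA being one) were searched in the same way. They occurred in the windows of Mavs and Tlr3 and in 29.8% of all windows.

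Of the 8 sensor genes, 2 fell with Trps1 siRNA, Ddx58 and Zbp1, and 6 did not pass the test. For comparison, 6.00% of the 14701 tested genes fell and 5.24% rose (edgeR quasi-likelihood test, Benjamini-Hochberg adjusted p under 0.05). None of the 8 rose by edgeR, by DESeq2 or by limma voom, and none rose at an unadjusted p under 0.05 in edgeR. At that unadjusted level 2 of the 8 passed in either direction, as did 3514 of the 14701 tested genes. Both Trps1 siRNA samples lay below both controls in Ddx58 and Zbp1 and above both in Mavs. The same held for 26.1% of all tested genes in the lower and 26.0% in the higher direction. The median log2 fold change of the 8 genes was -0.07, against 0.00 over all tested genes.

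**Figure D1:**
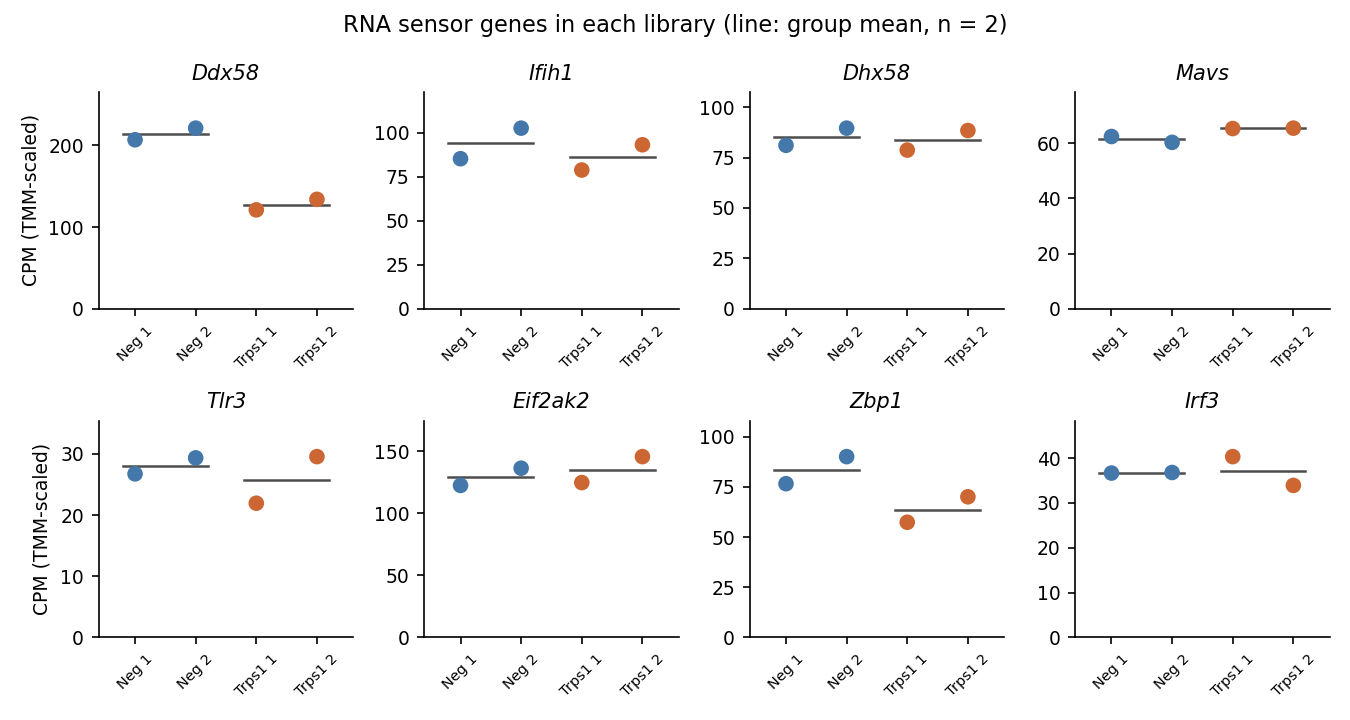
Level of each gene in CPM (vertical axes, starting at 0) in the 2 Negative siRNA libraries (blue) and the 2 Trps1 siRNA libraries (orange), with lines at the group means. Ddx58 and Zbp1 show separate groups lower with Trps1 siRNA, from 207 and 221 to 121 and 134 CPM in Ddx58, while the points of Ifih1, Dhx58, Tlr3, Eif2ak2 and Irf3 overlap.

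The RIG-I-like helicases come first. Ddx58 (ENSMUSG00000040296, chromosome 4, 40203773 to 40239828, minus strand, GRCm38, protein coding) had 4165 and 5669 reads in the controls and 2165 and 2916 after Trps1 siRNA. In CPM these were 207, 221, 121 and 134, so both Trps1 siRNA libraries lay far below both controls. The mean went from 214 ± 10.1 to 128 ± 9.11 CPM (SD, n = 2 per group), or 59.6% of the control. On the log2 scale the difference was -0.75 ± 0.06 (standard error), with a 95% interval of -0.87 to -0.62 and an edgeR adjusted p of 5.15e-09. By p it was the gene of rank 18 among 14701, and by fold the one of rank 234 from the lowest. With each of the 4 libraries left out in turn the call held, at log2 fold changes between -0.82 and -0.68. The authors' deposited table lists Ddx58 at -0.75 with an adjusted p of 2.25e-16, and it was the only one of the 8 genes in that table of 780.

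Ifih1 (ENSMUSG00000026896, chromosome 2, 62595798 to 62646255, minus strand), the gene of MDA5, was measured at 85.3 and 103 CPM in the controls and at 78.9 and 93.3 after Trps1 siRNA. The groups overlapped, and within each group the library numbered 2 was higher. The log2 fold change was -0.13 ± 0.09, with a 95% interval of -0.34 to 0.08 and an edgeR adjusted p of 0.474. Without sample 1 of Negative siRNA, Ifih1 passed the test at -0.25 (edgeR adjusted p = 0.0415). Without sample 2 of Negative siRNA its value was 0.01.

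Dhx58 (ENSMUSG00000017830, chromosome 11, 100694884 to 100704271, minus strand), the gene of LGP2, stood at 81.1 and 89.6 CPM in the controls and 78.7 and 88.4 with Trps1 siRNA. The 2 groups covered nearly the same range. Its log2 fold change was -0.03 ± 0.07, with an interval of -0.17 to 0.11 (edgeR adjusted p = 0.845).

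Ratios of raw counts within a library need no scaling between libraries. Ddx58 had 2.43 and 2.15 reads per read of Ifih1 in the controls, and 1.54 and 1.44 after Trps1 siRNA. Against Eif2ak2 the same ratio was 1.69 and 1.62, then 0.970 and 0.919, so both Trps1 siRNA libraries lay below both controls. The Dhx58 to Ifih1 ratio was 0.950 and 0.872 in the controls and 0.997 and 0.948 with Trps1 siRNA, which overlap. With 2 libraries per group an exact two-sided permutation test cannot give a p below 0.333, the value found for both Ddx58 ratios given here. These differences in response between the sensor genes are therefore a description.

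**Figure D2:**
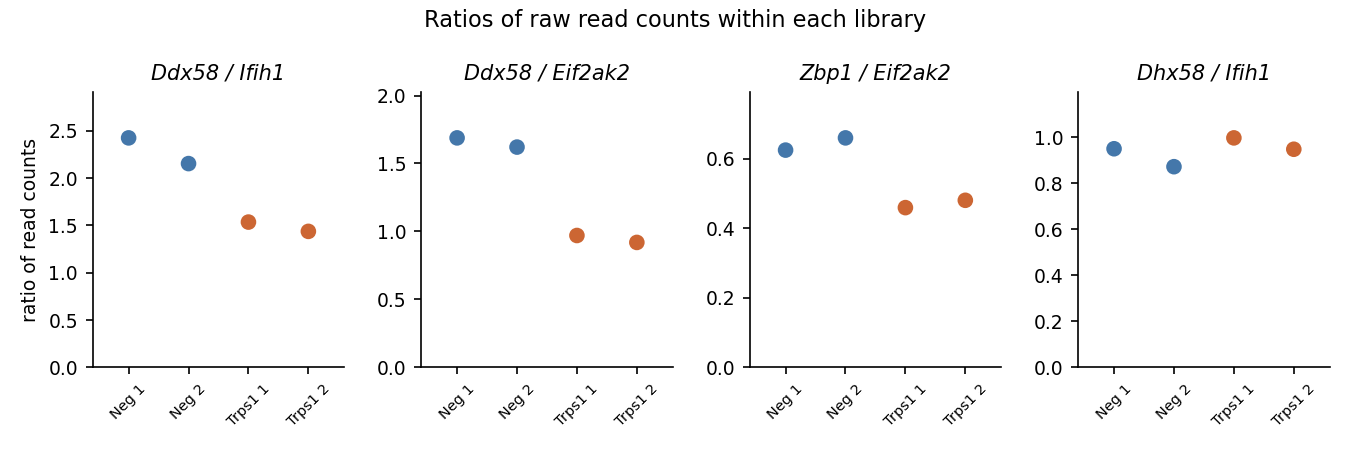
Ratio of raw read counts of 2 genes within each library (vertical axes, starting at 0), blue for Negative siRNA and orange for Trps1 siRNA. The ratios of Ddx58 to Ifih1, Ddx58 to Eif2ak2 and Zbp1 to Eif2ak2 are lower in both Trps1 siRNA libraries, and those of Dhx58 to Ifih1 overlap.

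Mavs, the adaptor that RIG-I and MDA5 share (ENSMUSG00000037523, chromosome 2, 131234063 to 131248025, plus strand), lay at 62.4 and 60.3 CPM in the controls and at 65.3 and 65.5 after Trps1 siRNA. The groups did not overlap but lay close together. The log2 fold change of 0.09 ± 0.07 (95% interval -0.05 to 0.23) did not pass the test, with an edgeR adjusted p of 0.459. Irf3, the factor at the end of this path (ENSMUSG00000003184, chromosome 7, 44997648 to 45002848, plus strand), had 36.7 and 36.8 CPM in the controls. With Trps1 siRNA it had 40.3 and 33.9 CPM, one library above and one below both controls. Its log2 fold change was 0.01 ± 0.09 (interval -0.17 to 0.19, edgeR adjusted p = 0.959). IRF3 protein is activated by phosphorylation, which mRNA levels do not measure.

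The endosomal receptor Tlr3 (ENSMUSG00000031639, chromosome 8, 45395665 to 45411080, minus strand) had 26.7 and 29.3 CPM in the controls and 21.9 and 29.6 with Trps1 siRNA. Its Trps1 siRNA samples lay on either side of the controls. The log2 fold change was -0.12 ± 0.11 (interval -0.36 to 0.12, edgeR adjusted p = 0.590), and without sample 1 of Trps1 siRNA it was 0.07.

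Eif2ak2, the gene of PKR (ENSMUSG00000024079, chromosome 17, 78852564 to 78882573, minus strand), reached 123 and 137 CPM in the controls, then 125 and 146 after Trps1 siRNA. These overlap, and the log2 fold change was 0.06 ± 0.07 (interval -0.08 to 0.21, edgeR adjusted p = 0.646). The interval excludes a fall of the size of that in Ddx58.

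Zbp1 (ENSMUSG00000027514, chromosome 2, 173206612 to 173218923, minus strand) had 1541 and 2308 reads in the controls and 1025 and 1524 with Trps1 siRNA, which gave 76.6, 90.1, 57.4 and 70.1 CPM. The groups did not overlap, but the gap between the lowest control and the highest Trps1 siRNA library was smaller than the difference within either group. The mean went from 83.3 ± 9.54 to 63.7 ± 8.98 CPM (SD, n = 2 per group), or 76.5% of the control. Its log2 fold change was -0.39 ± 0.09, with a 95% interval of -0.59 to -0.19 and an edgeR adjusted p of 0.0145. The call was lost without sample 2 of Negative siRNA (-0.26, edgeR adjusted p = 0.0529), without sample 1 of Trps1 siRNA (-0.25, 0.0668) and with offsets for GC content and exon length (-0.37, 0.0819). Per read of Eif2ak2, Zbp1 had 0.625 and 0.660 reads in the controls and 0.459 and 0.480 with Trps1 siRNA. This separation was wider than on the CPM scale, but it is a description. The exact two-sided permutation p was 0.333, the lowest possible with 2 libraries per group.

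**Figure D3:**
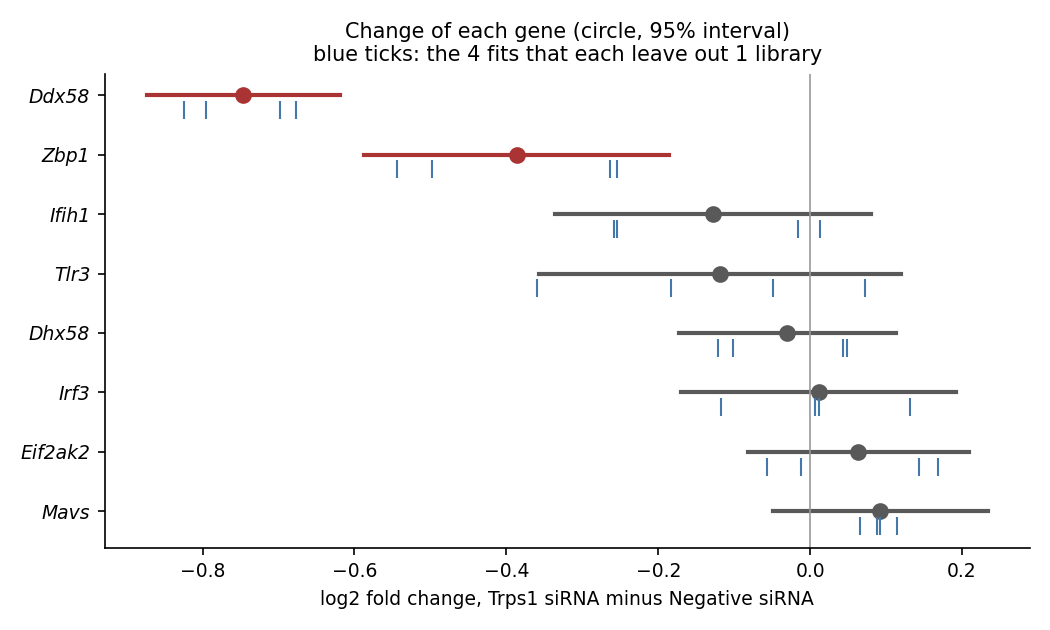
Log2 fold change of each gene (horizontal axis, Trps1 siRNA minus Negative siRNA) as a circle with its 95% interval, red where the gene fell and grey where it did not pass the test. Blue ticks are the 4 fits that each leave out 1 library, and those of Ddx58 stay between -0.82 and -0.68 while those of Ifih1, Tlr3, Dhx58, Irf3 and Eif2ak2 fall on both sides of 0.

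Some exon bases of 4 of the genes are also annotated to a gene on the opposite strand: 2.6% in Irf3, 4.3% in Dhx58, 3.4% in Eif2ak2 and 7.3% in Tlr3. Whether counting used strand is unknown here, so reads there cannot be assigned with certainty. Ddx58 and Zbp1, the 2 that fell, share none.

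In sum over the 8 genes, the level went from 733 to 625 CPM, and Ddx58 alone made up 80.2% of that difference and Zbp1 18.2%. Per kilobase of exon (RPKM), Ddx58 was highest in the controls at 30.4 ± 1.43. It was followed by Dhx58 at 26.1 ± 1.84, Eif2ak2 at 25.3 ± 1.92, Zbp1 at 23.6 ± 2.70, Mavs at 18.3 ± 0.449, Ifih1 at 11.5 ± 1.51, Irf3 at 10.7 ± 0.026 and Tlr3 at 5.39 ± 0.355 RPKM (SD, n = 2 for each). Dhx58, Eif2ak2 and Zbp1 did not differ from each other beyond their spread, nor did Ifih1 from Irf3. With Trps1 siRNA the order was Eif2ak2 at 26.5 ± 2.90, Dhx58 at 25.5 ± 2.10, Mavs at 19.5 ± 0.0318, Ddx58 at 18.1 ± 1.29, Zbp1 at 18.1 ± 2.54, Irf3 at 10.8 ± 1.32, Ifih1 at 10.5 ± 1.24 and Tlr3 at 4.94 ± 1.03 RPKM (SD, n = 2 for each). Ddx58, first in the controls, then lay within the spread of Zbp1, and its difference from Mavs was about its own SD. With the length of the longest transcript in place of all exons, Ddx58 was again first in the controls (55.3 RPKM). After Trps1 siRNA it then lay close to Dhx58 (32.9 and 34.6 RPKM) and above Mavs (21.4 RPKM) and Zbp1 (19.2 RPKM). The nearness of Ddx58 to Mavs and Zbp1 after Trps1 siRNA thus depended on the length used.

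Within each group the library numbered 2 was the higher one in Ddx58, Ifih1, Dhx58, Tlr3, Eif2ak2 and Zbp1. The ratio of sample 2 to sample 1 for Ifih1 was 1.204 in the controls and 1.18 with Trps1 siRNA, and that of Zbp1 was 1.18 and 1.22. For Mavs the ratios were 0.966 and 1.002. Macrophage markers had the other order, with 3202 CPM in sample 2 against 3275 in sample 1 of the controls and 2206 against 2779 with Trps1 siRNA. The sample with the fewest macrophage counts therefore had more Ddx58 (134 against 121 CPM) and more Zbp1 (70.1 against 57.4 CPM) than its partner. The part of macrophage RNA in the falls of Ddx58 and Zbp1 was not tested.

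A second set of letters is shown because small interfering RNAs can lower transcripts besides their target through short matches in the 3' UTR. The bases GAGTTGA were taken up because an earlier analysis of these data reported them in genes that fell, so their shares are a description and no independent support. They occurred in the 3' UTRs of Ddx58 and Eif2ak2, capitals marking the match along the gene's strand.
Ddx58: ccttaagcatgGAGTTGAtgagccaatgc
Eif2ak2, first site: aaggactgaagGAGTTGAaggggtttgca
Eif2ak2, second site: acctttgcatgGAGTTGAgtattaagatt
The matches lie at chr4:40205755-40205761 in Ddx58 and at chr17:78853455-78853461 and chr17:78852743-78852749 in Eif2ak2 (GENCODE M21, GRCm38). Among tested genes with a 3' UTR that holds these bases, 14.4% of 1304 fell, against 5.74% of 11701 without them. Ddx58, with a single match, is among those that fell, and Eif2ak2, with 2 matches, did not pass the test. The part of such matches in the fall of Ddx58 was not tested. Zbp1, the other sensor gene that fell, holds no match in its annotated 3' UTRs.

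The genes nearest to each sensor gene in pattern were sought among 7441 genes averaging 20 CPM or more, by the Euclidean distance between log2 CPM values centred over the 4 libraries. The nearest to Ddx58 were Myl9, a myosin light chain of contractile cells (distance 0.063), Rnf11, a ubiquitin ligase (0.066), and Fam126a (0.074), with log2 fold changes of -0.69, -0.69 and -0.69. Myl9 is also among the peritubular genes above. The nearest to Zbp1 were Ifi205 (0.045), the interferon-inducible GTPase Iigp1 (0.065) and Ly6c1 (0.070), with log2 fold changes of -0.39, -0.36 and -0.45. Ifih1 lay nearest to Gda (0.020), Rnf213 (0.026), a large ubiquitin ligase, and Zbtb33 (0.036). No other sensor gene was among the 3 nearest to Ddx58, which their log2 fold changes (-0.39 to 0.09, against -0.75) already fixed. With 4 libraries in 2 groups, such nearness means a like fold change and a like order of samples.

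Other genes of the same paths were taken in lists chosen by function, and no set test was run. The counts of each list are to be read beside the 6.00% of all tested genes that fell and the 5.24% that rose. Counts at an unadjusted edgeR p under 0.05 are to be read beside 3514 of all 14701 tested genes, in both directions together. None of 17 regulators of RIG-I and MDA5, such as the ubiquitin ligases Trim25 and Rnf135, passed the test in edgeR, DESeq2 or voom, and none had an unadjusted p under 0.05. Their median log2 fold change was 0.02. Trim25, which modifies RIG-I, had 222, 219, 198 and 232 CPM in the order Negative siRNA 1 and 2, Trps1 siRNA 1 and 2. A further list of 15 genes held DExD/H-box helicases and a gene that encodes no helicase. Some of these helicases are also among the 17 regulators. In edgeR, DESeq2 and voom none of the 15 genes was called, with 3 at an unadjusted edgeR p under 0.05. Their median was 0.07. Ddx3x was called lower with GC and length offsets, with the replicate block, without sample 1 of Negative siRNA and without sample 2 of Trps1 siRNA (edgeR adjusted p = 0.0182, 0.0348, 0.0463 and 0.0322), and Ddx6 with the offsets (0.0251), while Dhx33 was called higher with the block (0.0440).

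Of 23 genes of the MAVS platform and its kinases, 2 rose and 1 fell, where 5.24% and 6.00% of all tested genes did. At an unadjusted edgeR p under 0.05 there were 10 of the 23, 7 of them higher and the rest lower. Tbk1, the kinase that phosphorylates IRF3, rose from 60.8 and 61.5 to 71.0 and 70.7 CPM (log2 fold change 0.21 ± 0.07, edgeR adjusted p = 0.0417). Mfn1, a mitofusin of the outer mitochondrial membrane, rose by 0.22 ± 0.07 on the log2 scale (edgeR adjusted p = 0.0266). Tbkbp1, which binds TBK1, fell from 13.4 and 12.1 CPM to 8.67 and 7.77. The calls of Tbk1 and Mfn1 were lost in DESeq2 (adjusted p = 0.185 and 0.135), and without any 1 of the 4 libraries for Tbk1. Mfn1 lost its call without either control sample (edgeR adjusted p = 0.0874 and 0.180) or without sample 2 of Trps1 siRNA (0.204), and Tbkbp1 without sample 2 of Trps1 siRNA (edgeR adjusted p = 0.0696).

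Of 11 genes around the endosomal Toll-like receptors, 3 fell. Unc93b1, which carries these receptors to endosomes, was at 140 and 148 CPM in the controls and at 120 and 110 after Trps1 siRNA (log2 fold change -0.32 ± 0.06, edgeR adjusted p = 5.10e-04). Tlr7, a receptor for single-stranded RNA typical of myeloid cells, fell from 20.9 and 25.1 to 18.1 and 16.9 CPM, and the chaperone Hsp90b1 by 0.20 on the log2 scale. Only 1 of the 11 was called when sample 2 of either group was left out, and Tlr7 lost its call in DESeq2 too (adjusted p = 0.128). Hsp90b1 also lost its call without sample 1 of Negative siRNA (edgeR adjusted p = 0.105) and without robust estimation (0.0527). The library with the least Tlr7 and Unc93b1 was sample 2 of Trps1 siRNA, which also had the fewest macrophage counts (2206 CPM), and the part of macrophages in these falls was not tested.

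Around PKR and its substrate eIF2α, 2 of 14 genes rose and 12 did not pass the test. Atf4, the transcription factor whose translation rises when eIF2α is phosphorylated, went from 219 and 199 to 267 and 261 CPM (log2 fold change 0.34 ± 0.06, edgeR adjusted p = 3.69e-04). Ppp1r15a, the phosphatase subunit that restores eIF2α, went from 63.0 and 64.1 to 78.1 and 77.2 CPM (0.29 ± 0.07, edgeR adjusted p = 0.00392). Both calls held with each library left out. The dsRNA-binding activator Prkra had a log2 fold change of 0.06 ± 0.09.

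OAS enzymes are a further class of double-stranded RNA sensors that make a small messenger molecule. Of 10 genes of this list 5 fell and 5 did not pass the test, with a median log2 fold change of -0.20. Oas1a went from 70.4 and 77.6 to 55.5 and 55.8 CPM (-0.41 ± 0.07, edgeR adjusted p = 2.27e-04), Oas3 from 92.7 and 108 to 65.6 and 79.9, and Oasl1 from 49.8 and 55.0 to 39.8 and 41.6 CPM. Without sample 2 of Negative siRNA the count of genes that fell was 2, and Oas3 lost its call with GC and length offsets (edgeR adjusted p = 0.0700). Mouse Oas1 genes resemble each other closely, and reads may have been assigned to the wrong one.

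Of 8 genes of the ZBP1 death path, Birc3, an inhibitor of apoptosis, fell by 0.25 on the log2 scale, a call lost in DESeq2 (adjusted p = 0.126), without sample 1 of Negative siRNA and without either sample of Trps1 siRNA. Ripk3 and Mlkl, the kinase and the executor of necroptosis, had log2 fold changes of 0.11 ± 0.11 and 0.05 ± 0.08. Casp8 did not pass the test (-0.24, edgeR adjusted p = 0.0565), nor in DESeq2 (adjusted p = 0.263). It was called lower with all genes tested, with genes averaging 5 CPM or more, with the replicate block and with GC and length offsets. Of the other genes of cytosolic DNA sensing, 1 of 8 fell, the nucleotide hydrolase Samhd1 (-0.20 ± 0.06, edgeR adjusted p = 0.0223), and that call was lost without any 1 of the 4 libraries.

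Interferon transcripts were close to absent in both groups. Ifnb1, the main target of IRF3, had 3, 3, 4 and 3 reads in the order Negative siRNA 1 and 2, Trps1 siRNA 1 and 2, and 8 of 13 interferon genes had no read in any library. Ifnl3 alone passed the filter, with 9, 18, 25 and 25 reads, and did not pass the test (edgeR adjusted p = 0.127). Of 15 genes of interferon reception 4 fell. Usp18, an inhibitor of the receptor that interferon itself induces, went from 71.0 and 81.4 to 55.2 and 61.6 CPM (-0.38 ± 0.08, edgeR adjusted p = 0.00121), and Ptpn6, a phosphatase of blood cells, fell by 0.46 on the log2 scale. Without sample 2 of Trps1 siRNA the call of Ptpn6 was lost (-0.26, edgeR adjusted p = 0.178).

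Among the other interferon regulatory factors 2 of 7 tested genes fell. Irf7, which amplifies interferon production, went from 1043 and 1126 to 833 and 896 CPM (-0.33 ± 0.06, edgeR adjusted p = 7.76e-04). Irf5, a factor of myeloid cells, fell from 34.4 and 34.2 to 26.2 and 25.7 CPM (-0.40 ± 0.09, edgeR adjusted p = 0.00252). Its exons share 14.1% of their length with Tnpo3 on the other strand. Irf1, Irf2, Irf4, Irf8 and Irf9 did not pass the test, and both calls held with each library left out.

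Of 9 tested genes that IRF3 and interferon induce, 6 fell and 3 did not pass the test, with a median log2 fold change of -0.51 against 0.00 over all tested genes. Cxcl10, a chemokine, went from 39.0 and 32.3 CPM to 19.2 and 18.5. Ifit2, which binds RNA, went from 38.1 and 39.1 to 20.9 and 25.9 CPM, Ifit3 from 349 and 387 to 222 and 265, and Ifit1 from 191 and 215 to 132 and 154. Isg15 fell by 0.34 on the log2 scale, and Ccl5, at 4.92 to 8.59 CPM, by 0.62. Ifih1, also a member of this list, Rsad2 (91.3, 114, 72.1 and 100 CPM) and Isg20 were the 3 that did not pass. With the replicate block Rsad2 was called lower (-0.26, edgeR adjusted p = 0.000182). When a library was left out its log2 fold change ranged from -0.52 to -0.04. Without sample 2 of Negative siRNA 4 of the 9 fell. The calls of Cxcl10, Ifit1, Ifit2 and Ifit3 held with each library left out, while those of Isg15 and Ccl5 were lost without sample 2 of Negative siRNA, that of Ccl5 also without either Trps1 siRNA sample and in DESeq2, and that of Isg15 with GC and length offsets (-0.28, edgeR adjusted p = 0.129). The falls of these genes ran beside those of the macrophage markers and the rise of the Leydig genes, and the part of either in them was not tested.

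**Figure D4:**
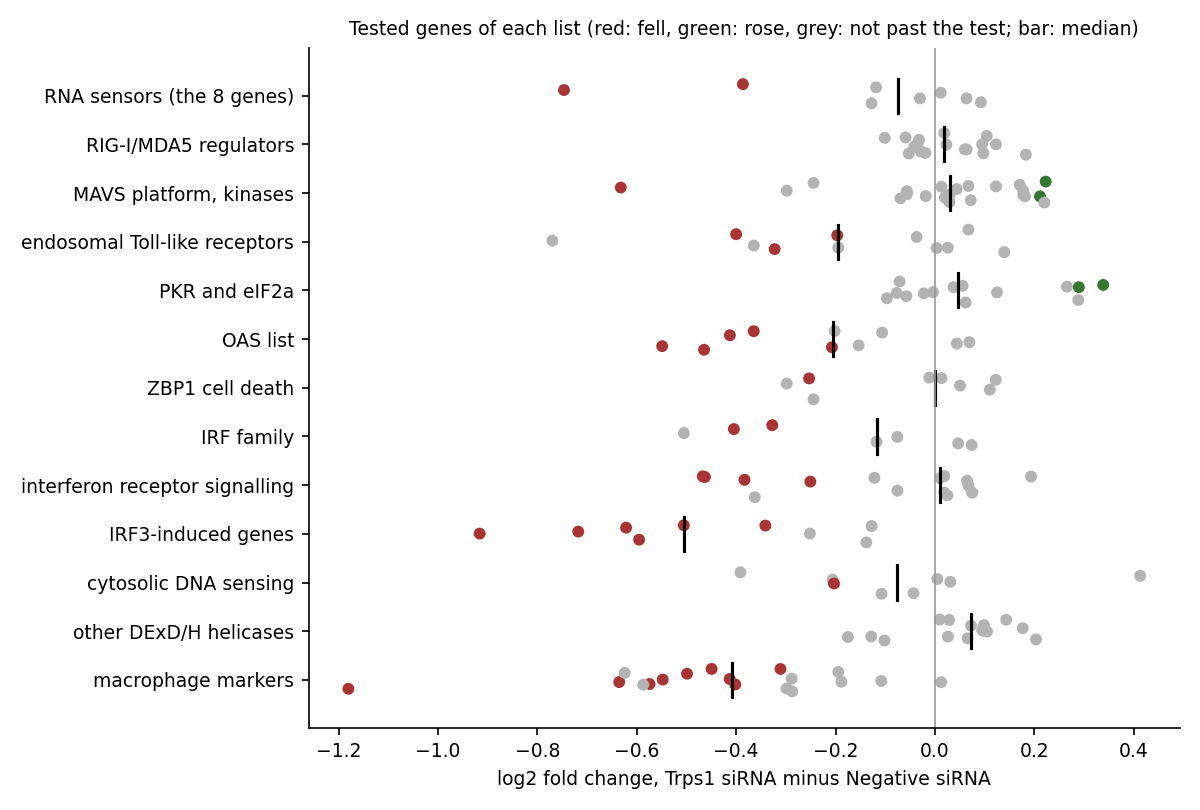
Log2 fold change (horizontal axis, Trps1 siRNA minus Negative siRNA) of every tested gene in the 8 sensor genes, 11 pathway lists and the macrophage markers, red where it fell, green where it rose, grey where it did not pass the test, with a bar at the list's median. Medians lie at -0.51 for IRF3-induced genes, -0.41 for macrophage markers and -0.20 for OAS genes, and between -0.19 and 0.07 for the other lists plotted.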

How the data were processed

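RNA sequencing counts for 2 Negative siRNA and 2 Trps1 siRNA samples were used, grouped by their titles. The authors deposited whole-number read counts per gene; the submitters' processing notes name HISAT2, featureCounts and GRCm38 (mm10). The sources used here give no tool versions, strand setting or rule for reads mapping to several places. A second deposited table holds 780 genes, 355 higher and 425 lower. The authors' mean signal per group there equals the mean of counts divided by size factors (largest relative difference 4.8e-10), beside the authors' log2 fold change, p-value and adjusted p-value, from a test that these sources do not name.

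Counts were fitted with edgeR 4.0.16 in R 4.3.3: TMM scaling, filterByExpr (minimum count 10), robust quasi-likelihood fits (glmQLFit, glmQLFTest) on group only, with 2 residual degrees of freedom and Benjamini-Hochberg adjustment over 14701 genes. Standard errors were the log2 fold change over the square root of F, and 95% intervals used the moderated degrees of freedom. RPKM divided TMM-scaled CPM by the union of exons (GENCODE M21, GRCm38). A total of 55141 features had a symbol. Replicates of each group differed by more than sampling noise (chi-square per gene 7.58 and 4.56). The script was tested on simulated data.

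The 8 genes, the 12 pathway lists, the 7 marker lists and the rule for naming genes were set with earlier results of these data known. The rule named the 8 genes and Trps1, up to 3 tested genes of each list with the smallest p, tested members of the IRF and IRF3-induced lists, and the 3 nearest patterns. Trim25, Rnf135, Ripk3, Mlkl and Prkra were named for their role after their values were seen. Some genes that the rule names are not reported here. Alternatives were RLE factors, library totals, DESeq2 1.42.0, voom in limma 3.58.1, testing all genes or those averaging 5 CPM or more, non-robust fits, a block for the replicate number, GC and length offsets, and leaving out each library.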

Additional observations from a re-analysis of the deposited data

How the results depend on the processing

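Ddx58 fell in all 13 alternatives, at log2 fold changes of -0.82 to -0.68. Of the 8 sensor genes, 1 fell with GC and length offsets, 1 to 3 with a library left out, and 2 in each of the 8 other alternatives. With the replicate number as a block Zbp1 was at -0.39 (edgeR adjusted p = 9.77e-08), and 2285 genes were called against 1652. The labels do not say that same-numbered samples are paired, so the numbers were not treated as pairs. Same-numbered samples deviated with a correlation of 0.069 over 10758 genes, which does not settle whether they were paired. DESeq2 called 914 genes, 511 lower and 403 higher, and fits without a library 871 to 1675, with 476 to 927 lower and 395 to 748 higher. Values near 0 changed sign when a library was left out, where Ifih1 ranged from -0.2584 to 0.0135, Dhx58 from -0.1212 to 0.0480, Tlr3 from -0.3595 to 0.0720, Eif2ak2 from -0.0569 to 0.1683, Irf3 from -0.1167 to 0.1319 and Irf8 from -0.0009 to 0.1427 on the log2 scale. Irf2 was at -0.0041 with GC and length offsets. The causes were not tested. Library totals alone moved the calls to 772 lower and 834 higher. Of 18 macrophage markers 16 fell without sample 1 of Trps1 siRNA and 14 with the replicate block, against 9. Of 13 interferon genes 12 were under the count filter and not tested.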
